A study of Mus musculus with 4 samples.

Results

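Smooth muscle contractile genes were followed in cardiac progenitor cells that lacked Isl1. The group comprised 10 genes, namely Tagln, Cnn1, Cnn2, Myh11, Myl9, Mylk, Smtn, Cald1, Synpo2 and Des, out of 20701 gene symbols in the deposited transcript table. They were chosen by name. Where a symbol had several transcript entries, the entry with the highest summed count over the 4 libraries was kept, and all 10 genes passed the filter on low counts.

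Smooth muscle shortens when myosin pulls on actin filaments. The kinase encoded by Mylk phosphorylates the myosin regulatory light chain, one form of which is encoded by Myl9, and this switches on the smooth muscle myosin heavy chain encoded by Myh11. Along the actin filaments lie calponins, caldesmon, transgelin and smoothelin, while desmin filaments and the actin-bundling protein of Synpo2 tie the filaments to dense bodies and Z-discs. Many of these genes carry CArG boxes, which bind serum response factor (Srf) and its cofactor myocardin, and several of them are known to be active for a time in the embryonic heart before they become restricted to smooth muscle.

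The cells came from E14 Tg(Nkx2-5-EmGFP) mouse embryonic stem cells, in which a green fluorescent protein reports Nkx2-5. All of the stem cells were kept on mitomycin-treated embryonic fibroblasts, were differentiated into cardiac progenitors, and were FACS-sorted as GFP-positive cells on day 5. Control cells carried the reporter alone, with 2 libraries, and Isl1-/- cells (here Isl1_KO) in addition had Isl1 disrupted by CRISPR/Cas9 with a pair of guide RNAs, also with 2 libraries. The study used different clones for each genotype, so a clone's own features and those of a library cannot be told apart, and p-values measure the spread between these 4 libraries. The labels tie no clone, batch or date to a library. As a check of the labels, Isl1 (chr13:117088478-117099896, minus strand) was at 35.1 and 35.7 CPM (counts scaled to library size, per 1e6 counts) in control and at 1.31 and 2.08 CPM in Isl1_KO, a log2 fold change of -4.39 (SE 0.212, adjusted p 0.00277 in edgeR's quasi-likelihood test). Nkx2-5, whose reporter served for the sort, was at 21.1 and 19.8 CPM in control and at 4.77 and 4.34 CPM in Isl1_KO.

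The libraries held between 8821517 and 13186109 counts over 1 entry per symbol. The control pair was very close, its libraries differing by a chi-square of 1.14 per degree of freedom over 12530 genes, where 1 would be counting error alone. The control libraries thus differed by little more than sampling noise, and although the study names different clones, their SD may be partly a technical one. The Isl1_KO pair was far apart, at 18.7 over 12656 genes. For this reason each Isl1_KO library is given separately throughout, as replicate 1 and replicate 2.

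Upstream sequences are shown for 4 of the genes, Cnn2 and Myl9 because they carry a CArG box there and Synpo2 and Des because their levels were furthest below control. RefSeq promoter windows (build GRCm38.p6) of 250 bases before and 50 after a start site were matched by symbol to 8 of the 10 genes, in 9 windows, Cald1 having a pair. Tagln and Myh11 had no entry. Each window was placed by a single exact match on NCBIM37 (the assembly behind mm9), and the 250 bases before the start are printed 5′ to 3′ on the strand of the gene, with a CArG box or MEF2 site in capitals.
Cnn2, chr10:79451095-79451344, plus strand: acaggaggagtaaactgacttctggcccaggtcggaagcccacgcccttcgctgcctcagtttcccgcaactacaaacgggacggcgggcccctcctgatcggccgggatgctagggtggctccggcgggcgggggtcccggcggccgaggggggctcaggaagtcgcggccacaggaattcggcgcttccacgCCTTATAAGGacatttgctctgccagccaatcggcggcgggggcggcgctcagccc
Myl9, chr2:156600950-156601199, plus strand: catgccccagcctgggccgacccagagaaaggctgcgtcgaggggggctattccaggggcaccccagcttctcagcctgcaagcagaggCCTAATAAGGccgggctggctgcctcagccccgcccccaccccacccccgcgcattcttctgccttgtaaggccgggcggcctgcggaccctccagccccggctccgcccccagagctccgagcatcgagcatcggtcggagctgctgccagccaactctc
Synpo2, chr3:122939068-122939317, minus strand: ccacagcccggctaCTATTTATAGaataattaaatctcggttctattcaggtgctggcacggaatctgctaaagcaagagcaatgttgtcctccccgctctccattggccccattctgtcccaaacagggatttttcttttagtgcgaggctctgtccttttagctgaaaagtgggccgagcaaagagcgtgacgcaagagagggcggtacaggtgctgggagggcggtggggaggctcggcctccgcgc
Des, chr1:75356617-75356866, plus strand: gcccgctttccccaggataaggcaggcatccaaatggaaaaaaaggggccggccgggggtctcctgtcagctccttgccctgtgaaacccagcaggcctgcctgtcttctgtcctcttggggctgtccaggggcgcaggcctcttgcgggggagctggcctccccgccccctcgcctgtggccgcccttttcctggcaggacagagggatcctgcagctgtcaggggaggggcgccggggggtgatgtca
The CArG box of Cnn2 (CCTTATAAGG) lay 56 to 47 bases before the start and that of Myl9 (CCTAATAAGG) lay 161 to 152 bases before it. In Synpo2 a MEF2 site (CTATTTATAG) lay 236 to 227 bases before the start. Both strands of all 9 windows were searched for these motifs, known by those names, which did not overlap each other. A CArG box was found in 2 of the 9 windows, against 535 of all 32851 windows (1.63%), and a MEF2 site in 1 of the 9, against 1047 of all windows (3.19%). The window of Des held neither motif within these 300 bases.

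The contractile genes behaved differently in the libraries of the Isl1_KO pair. In replicate 2 all 10 genes were below both control libraries, and 8 of them by more than 1.5-fold with 0.5 CPM added to each level (9 with nothing added), whereas in replicate 1 only Synpo2 and Des were that far below in either way. Their summed level was 3044 and 3007 CPM in control, 3149 CPM in Isl1_KO replicate 1 and 1588 CPM in Isl1_KO replicate 2. Cald1, Tagln and Cnn2 made up most of this sum. Only Synpo2 passed the test over all genes. In bulk RNA, fewer cells that express these genes and less of their RNA per cell cannot be told apart. Of the 12715 genes tested with edgeR, 2.45% were called in Isl1_KO at an adjusted p under 0.05, 1.94% lower and 0.503% higher, against 1 lower and 0 higher of these 10 genes. At an unadjusted p under 0.05, 2 of the 10 were lower and 0 higher, where 12.2% of all genes were lower and 11.0% higher. DESeq2 called 1 of the 10 lower and 0 higher, against 3.18% and 1.25% of the genes it tested.

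**Figure D1:**
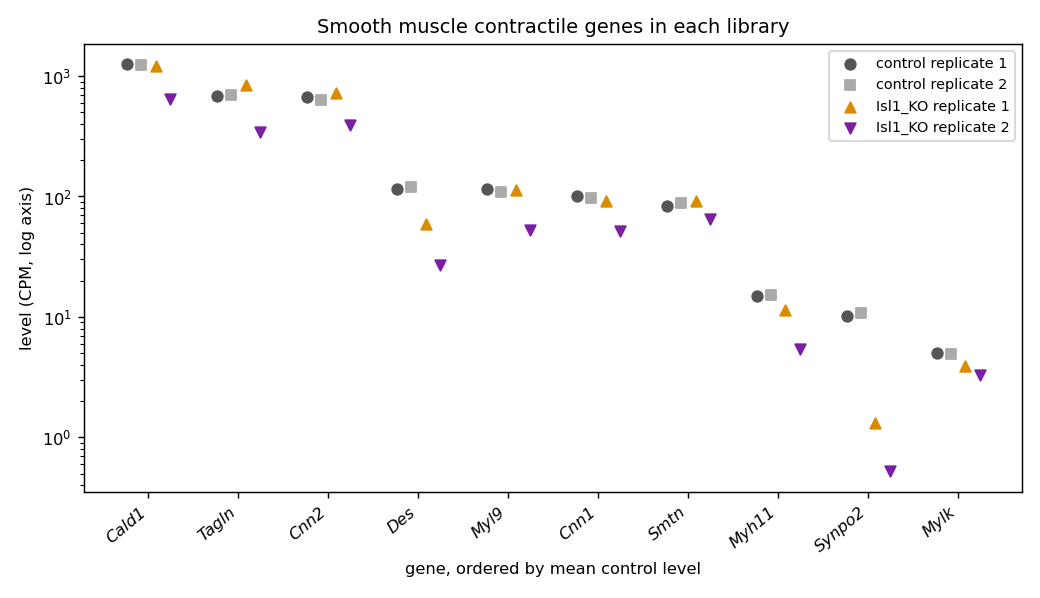
Level of each contractile gene in each of the 4 libraries, in CPM on a log axis, with the genes ordered by mean control level and 1 point per library. The control points are nearly level for every gene, the downward triangle of Isl1_KO replicate 2 is the lowest point of every gene, and Synpo2 has the widest gap, from 10.2 and 10.7 CPM in control to 1.31 and 0.521 CPM in Isl1_KO.

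Among the genes whose products bind actin filaments, Cald1 was the most abundant by counts. Cald1 (chr6:34548500-34725473, plus strand) encodes caldesmon, which inhibits the myosin ATPase on actin, and non-muscle cells use a form of it as well. It was at 1251 and 1234 CPM in control, 1213 CPM in Isl1_KO replicate 1 and 644 CPM in replicate 2. The first Isl1_KO library thus lay just below the controls and the second far below them, and the log2 fold change of -0.42 (SE 0.288) did not pass the test (edgeR adjusted p 0.431). The other Cald1 entry of the table shares nearly all of its reads and gave folds to the control mean of 0.976 and 0.523, against 0.976 and 0.518 for the entry kept.

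Tagln (chr9:45737711-45744141, minus strand) encodes transgelin, or SM22α, an actin-bundling protein that serves as an early marker of smooth muscle. Its level was 681 and 690.3 CPM in control, 842 CPM in Isl1_KO replicate 1 and 346 CPM in Isl1_KO replicate 2. The Isl1_KO libraries lay on opposite sides of the control pair, so that the group means of 686 ± 6.70 and 594 ± 351 CPM (SD, n = 2 each) overlapped and the log2 fold change was -0.21 (edgeR adjusted p 0.792, SE 0.396). Replicate 2 was at 41.1% of replicate 1, and of the 10 genes only Synpo2, with far fewer counts, had a lower share (39.8%). An end of Tagln shares 65 exonic bases with Pcsk7 on the opposite strand, and reads were counted without regard to strand. The 4 libraries held 280, 338, 444 and 346 counts of Pcsk7, control first, against 5998, 6309, 10956 and 3991 for Tagln.

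Calponins restrain actin-activated myosin, with Cnn1 largely a smooth muscle gene and Cnn2 active in many cell types. Cnn2 (chr10:79451329-79458807, plus strand) was at 665 and 638 CPM in control, 722 CPM in Isl1_KO replicate 1 and 393 CPM in replicate 2. As with Tagln, replicate 1 was above both controls and replicate 2 below both, and the log2 fold change was -0.22 (edgeR adjusted p 0.670, SE 0.278). Cnn1 (chr9:21903725-21914074, plus strand) was at 101 and 96.8 CPM in control, 91.2 CPM in Isl1_KO replicate 1 and 51.4 CPM in replicate 2. Both Isl1_KO libraries were below both controls for Cnn1, yet its log2 fold change of -0.47 (SE 0.262) did not pass either (edgeR adjusted p 0.342).

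Smtn (chr11:3417526-3440615, minus strand) encodes smoothelin, a cytoskeletal protein of contractile smooth muscle cells. Its log2 fold change was the smallest in size of the 10 genes, from 84.0 and 87.8 CPM in control to 91.2 CPM in Isl1_KO replicate 1 and 65.3 CPM in replicate 2. The groups overlapped, and the value was -0.13 (edgeR adjusted p 0.671, SE 0.164). The table holds 5 entries of Smtn, whose folds to control ranged from 1.062 to 1.064 in replicate 1 and from 0.757 to 0.763 in replicate 2. Exons of the long noncoding RNA genes Gm11946 and Gm11947 overlap Smtn on the other strand.

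The myosin genes also had their lowest level in Isl1_KO replicate 2. Myl9 (chr2:156601156-156607394, plus strand), the regulatory light chain gene, was at 115 and 109 CPM in control, 113 CPM in Isl1_KO replicate 1 and 52.7 CPM in replicate 2. Replicate 1 lay between the controls, at 101% of their mean, and replicate 2 at 47.0%, with a log2 fold change of -0.43 (edgeR adjusted p 0.487, SE 0.341). Myh11 (chr16:14194620-14291501, minus strand), the heavy chain gene and the most specific marker of smooth muscle in the set, gave 132 and 139 reads in the control libraries against 148 and 62 in Isl1_KO, where more reads were sequenced. Scaled for depth this was 15.0 and 15.2 CPM against 11.4 and 5.38 CPM, both Isl1_KO libraries below both controls, with a log2 fold change of -0.84 (edgeR adjusted p 0.232, SE 0.349).

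Mylk (chr16:34745296-35002520, plus strand), the light chain kinase gene, was the least abundant, at 4.99 and 4.92 CPM in control and 3.92 and 3.30 CPM in Isl1_KO. These rest on 38 to 51 counts per library. The fold of replicate 1 to control was 0.790, with a 95% interval from 0.549 to 1.13, and that of replicate 2 was 0.665 (0.442 to 0.982), where intervals are exact binomial ones that cover counting error only. The log2 fold change was -0.45 (edgeR adjusted p 0.288, SE 0.220). Mylk was also the gene with the smallest difference between the Isl1_KO libraries, replicate 2 being at 84.1% of replicate 1, and a difference in replicate 1 was not detectable at this depth.

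The remaining genes, Des and Synpo2, were furthest below control and were low in both Isl1_KO libraries. Des (chr1:75356904-75365154, plus strand) encodes desmin, the muscle intermediate filament protein, which cardiomyocytes and pericytes make too. It was at 116 and 121 CPM in control, 59.5 CPM in Isl1_KO replicate 1 and 26.9 CPM in replicate 2. Both Isl1_KO values were well under both controls, at 50.3% and 22.7% of their mean, but the log2 fold change of -1.45 (SE 0.349) missed the threshold (adjusted p 0.103 in edgeR and 0.117 in DESeq2). Of the fits to all 4 libraries, it passed in that with the replicate number as a block (log2 fold change -1.54, edgeR adjusted p 0.0371), though no label says that the numbers pair these libraries. It also passed with either Isl1_KO library left out (log2 fold change -2.14 without replicate 1 and -0.99 without replicate 2), where the spread is that of the control pair. An exon of Des overlaps the transcript Gm15179 on the other strand.

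Synpo2 (chr3:122779437-122939067, minus strand) encodes synaptopodin 2, or myopodin, an actin-bundling protein of Z-discs and dense bodies in heart, skeletal and smooth muscle. It had 90 and 98 counts in control, 17 in Isl1_KO replicate 1 and 6 in Isl1_KO replicate 2, or 10.2, 10.7, 1.31 and 0.521 CPM. Both Isl1_KO libraries were thus far under both controls, and each was above the floor of 3 counts. Synpo2 fell from 10.5 ± 0.358 to 0.914 ± 0.556 CPM (SD, n = 2 each), an 11.5-fold lower mean, with a log2 fold change of -3.47 (SE 0.367) and an adjusted p of 0.0201 in edgeR and 5.7e-09 in DESeq2. The fold of replicate 1 to control was 0.125 (95% counting interval 0.0712 to 0.205) and that of replicate 2 was 0.0497 (0.0180 to 0.110). The call rests on each control library, since without the first or the second the edgeR adjusted p was 0.218 or 0.211, while the log2 fold change stayed at -3.52 and -3.45. A filter of 10 counts in each library left Synpo2 untested.

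Taken side by side, the genes sat differently against control in each Isl1_KO library. In replicate 1, 6 of the 10 genes were below both controls, 3 were above both (Tagln, Cnn2 and Smtn) and 1 lay between them (Myl9). Across all 12715 genes tested, 5237 were below both controls in replicate 1 and 5231 (41.1%) above both. In replicate 2, where all 10 contractile genes were below both controls, this was so for 43.7% of all genes. The 6 genes for which both Isl1_KO libraries were below both controls (Cnn1, Myh11, Mylk, Cald1, Synpo2 and Des) compare with 29.0% of all genes, and 0 of the 10 had both Isl1_KO libraries above both controls, against 29.1% of all genes.

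By size, with 0.5 CPM added, 2 of the 10 genes were more than 1.5-fold below control in replicate 1, against 8.11% of all genes, and 8 of the 10 in replicate 2, against 13.2% of all genes. The exceptions in replicate 2 were Mylk and Smtn. Mylk, which is rare, lies at the limit. With nothing added it was 1.504-fold below control, and the counts were 2 of the 10 in replicate 1, against 9.64% of all genes, and 9 of the 10 in replicate 2, against 14.4%, an alternative chosen after seeing the data. None of the 10 was more than 1.5-fold above control in either library, against 1.69% and 4.92% of all genes in replicate 1 and replicate 2. Their median log2 ratio to control, computed with 0.5 CPM added, was -0.076 in replicate 1 and -0.97 in replicate 2, where the medians of all genes were -0.0025 and 0.00045. Without Des and Synpo2 the medians of the other 8 genes were -0.013 and -0.94. These are single libraries set against a pair, so they are values without a test.

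**Figure D2:**
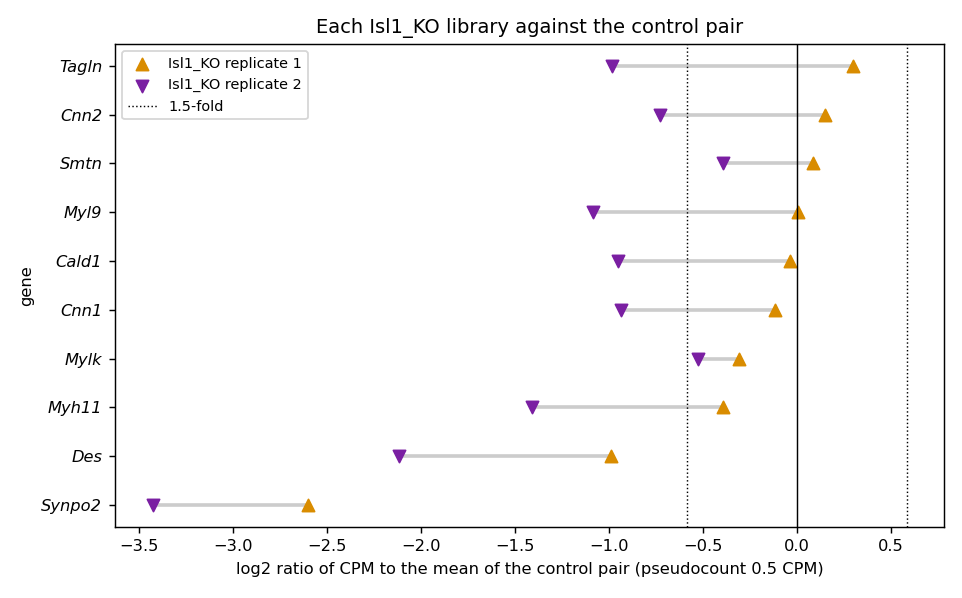
Log2 ratio of each Isl1_KO library to the mean of the control pair for each contractile gene, with 0.5 CPM added, a grey bar joining the libraries and dotted lines at 1.5-fold. The replicate 2 marker is to the left of the replicate 1 marker for all 10 genes, from the pair of Mylk (-0.30 and -0.52) to that of Tagln (0.30 and -0.98).

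The Isl1_KO libraries were then compared with each other. Replicate 2 was below replicate 1 for all 10 genes, while this was so for 48.3% of all genes tested, and for 8 of the 10 by more than 1.5-fold, against 7.44% of all genes. The median log2 ratio of replicate 2 over replicate 1 was -0.90 for the contractile genes and 0.011 for all genes. Ranked by this ratio, again with 0.5 CPM added, 1.09% of all genes had a lower value than Tagln, 1.70% a lower value than Des and 1.96% a lower value than Myl9. Smtn and Mylk were closest between the libraries, where 10.3% of genes had a lower value than Smtn and 22.1% a lower value than Mylk. With 1 library on each side this difference has no replicate check.

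**Figure D3:**
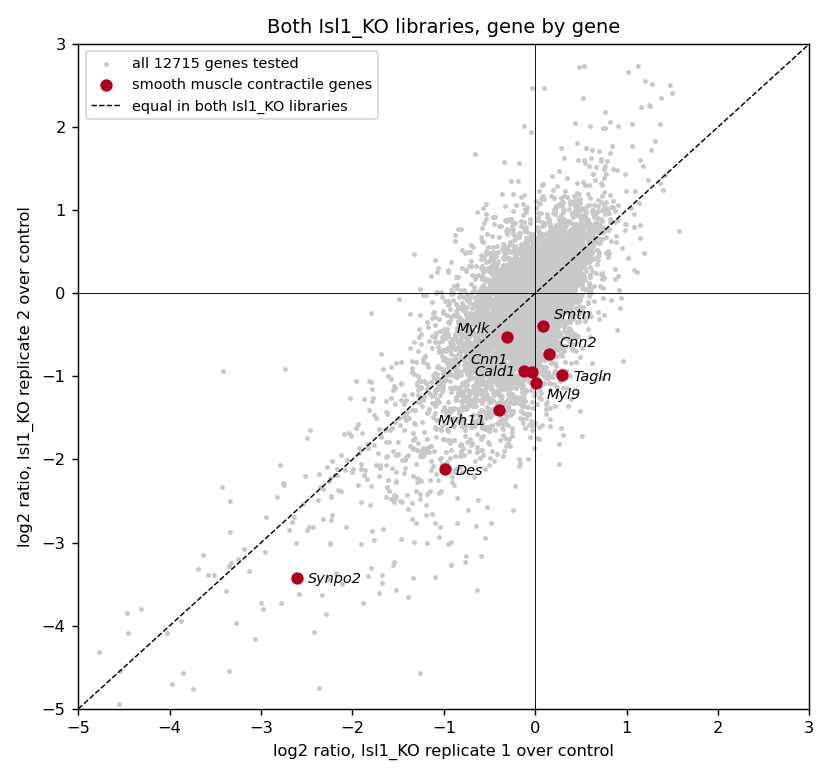
Log2 ratio to control in Isl1_KO replicate 2 (vertical axis) against that in Isl1_KO replicate 1 (horizontal axis) for all 12715 genes tested (grey) and the contractile genes (red), with a dashed line where both are equal and 15 genes outside the axes. All 10 red points lie under the dashed line, 8 of them at or to the right of -0.39 on the horizontal axis, and Des and Synpo2 lie apart at the lower left.

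Levels per transcript length were read from the deposited RPKM values (reads scaled to transcript length and library size). In control the highest were Tagln at 243 and 247 RPKM, Cnn2 at 212 and 203 RPKM and Cald1 at 171 and 169 RPKM. Next came Myl9 at 60.4 and 56.9 RPKM, Cnn1 at 28.8 and 27.6 RPKM, Des at 21.4 and 22.3 RPKM and Smtn at 14.1 and 14.7 RPKM. The rarest transcripts were Myh11 at 1.28 and 1.30 RPKM, Synpo2 at 0.810 and 0.850 RPKM and Mylk at 0.360 RPKM in both libraries. The control values of neighbours in this order did not overlap. In Isl1_KO the order changed at a few places. Smtn (15.3 and 11.4 RPKM) was above Des (10.9 and 5.15 RPKM) in both libraries, Synpo2 (0.100 and 0.0400 RPKM) was below Mylk (0.280 and 0.250 RPKM), and in replicate 2 Tagln (128 RPKM) and Cnn2 (130 RPKM) were nearly level.

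Non-muscle relatives of these genes were set beside them. Myh10 and Myh9, the non-muscle myosin heavy chains, were far more abundant than Myh11, with 99.0 and 102 RPKM for Myh10 in control. The ratio of Myh11 to Myh10 was 0.0129 and 0.0128 in control, 0.0105 in Isl1_KO replicate 1 and 0.00697 in replicate 2. Likewise the ratio of Tagln to Tagln2 was 2.06 and 2.02 in control, 2.14 in replicate 1 and 1.24 in replicate 2. The ratio of Myl9 to Myl12a, a non-muscle light chain gene, was 0.549 and 0.531 in control, 0.502 in replicate 1 and 0.331 in replicate 2. For Cnn2 over Cnn3 the values were 1.88 and 1.86 in control, 1.91 in replicate 1 and 1.49 in replicate 2. The ratio of Myh11 to Myh9 was 0.0176 and 0.0180 in control, 0.0111 in replicate 1 and 0.00633 in replicate 2. Within the set, the ratio of Cnn1 to Cnn2 was 0.136 in both controls, 0.113 in replicate 1 and 0.117 in replicate 2. In 5 of these 6 pairs the ratio was lowest in replicate 2, the exception being Cnn1 over Cnn2, which was lowest in replicate 1. Relatives with similar sequence can also exchange reads in mapping.

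The list of 10 such relatives had 0 genes called in either direction by edgeR or DESeq2. At an unadjusted edgeR p under 0.05, 1 was lower and 0 higher, against 12.2% and 11.0% of all genes. The lower one was Tagln3, a rare transcript at 2.84 and 2.52 CPM in control, 0.999 CPM in replicate 1 and 0.52 CPM in replicate 2. The median log2 ratio of the list to control was 0.12 in replicate 1 and -0.32 in replicate 2. By gene, the log2 fold change was 0.0047 for Tagln2 (edgeR adjusted p 0.992), -0.12 for Cnn3 (0.718), 0.15 for Myh9 (0.439) and -0.34 for Myh10 (0.283). The sign for Tagln2 turned negative under several alternatives, and that for Cnn3 turned positive without Isl1_KO replicate 2. In replicate 2, 9 of the 10 relatives were below replicate 1, against 48.3% of all genes, and the median log2 ratio of the list was -0.49.

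Other structural genes of smooth muscle gave the same order of the Isl1_KO libraries. The list of 17 held actins, tropomyosins, filamin, vinculin and adhesion genes. Replicate 2 was below replicate 1 for all 17, against 48.3% of all genes. Against control, 10 of the 17 were above both libraries in replicate 1 and 6 below both, and 16 were below both in replicate 2. Of all 12715 genes tested, 5231 were above both and 5237 below both in replicate 1, and 5552 were below both in replicate 2. The exception in replicate 2 was Actn1, at 799 and 804 CPM in control, 1160 CPM in replicate 1 and 919 CPM in replicate 2. Acta2, the smooth muscle α-actin gene, was at 1638 and 1636 CPM in control, 1137 CPM in Isl1_KO replicate 1 and 276 CPM in replicate 2. Actg2, the smooth muscle γ-actin gene, was at 11.8 and 10.1 CPM in control, 13.2 CPM in replicate 1 and 2.26 CPM in replicate 2. Lmod1, a nucleator of actin filaments, was at 8.40 and 7.66 CPM in control, 4.30 CPM in replicate 1 and 1.91 CPM in replicate 2. Acta2 and Lmod1 were thus below control in both Isl1_KO libraries and Actg2 in replicate 2 alone. The log2 fold changes were -1.21 (SE 0.618) for Acta2, -0.48 (SE 0.717) for Actg2 and -1.35 (SE 0.382) for Lmod1, with edgeR adjusted p of 0.308, 0.730 and 0.133. Of the 17, edgeR called 0 in either direction (3 lower and 1 higher at an unadjusted p under 0.05) and DESeq2 called 2 lower and 0 higher. At that unadjusted p 12.2% of all genes were lower and 11.0% higher, and DESeq2 called 3.18% lower and 1.25% higher. Their median log2 ratio to control was 0.055 in replicate 1 and -0.70 in replicate 2.

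Genes that set the phosphorylation of myosin from outside the filament were listed separately. Of 14 kinase, phosphatase, calmodulin and receptor genes, 2 were called lower and 0 higher, against 1.94% and 0.503% of all genes. At an unadjusted p under 0.05, 4 were lower and 2 higher, against 12.2% and 11.0% of all genes. DESeq2 called 3 lower and 0 higher, against 3.18% and 1.25% of the genes it tested. Prkg1, the cGMP-dependent kinase gene that mediates relaxation, fell from 28.6 and 27.4 CPM in control to 5.77 and 2.26 CPM in Isl1_KO (log2 fold change -2.78, SE 0.377, edgeR adjusted p 0.0359). Ednra, a receptor gene for endothelin, fell from 24.5 and 27.9 CPM to 11.0 and 7.89 CPM (log2 fold change -1.47, SE 0.195, edgeR adjusted p 0.0355). Neither stayed past the threshold when a control library was left out. The list had median log2 ratios of -0.058 and -0.13 to control in replicates 1 and 2. Replicate 2 was below replicate 1 for 9 of the 14, against 48.3% of all genes.

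Regulators of the smooth muscle programme included the cofactors and ligands that turn these genes on or off. Of 20 listed, 19 were tested (Tbx18 was too low) and 6 were called lower and 0 higher, against 1.94% and 0.503% of all genes. At an unadjusted p under 0.05, 9 were lower and 2 higher, against 12.2% and 11.0% of all genes, and DESeq2 called 6 lower and 2 higher. The median log2 ratio of the list to control was -0.17 in replicate 1 and -0.44 in replicate 2. Replicate 2 was below replicate 1 for 18 of the 19 tested, against 48.3% of all genes. Myocd, the gene of the Srf cofactor myocardin, was at 47.0 and 51.4 CPM in control and at 2.54 and 2.43 CPM in Isl1_KO, and Mef2c at 171 and 177 CPM in control and at 11.5 and 6.85 CPM in Isl1_KO. Both fell, with log2 fold changes of -4.30 for Myocd and -4.23 for Mef2c and edgeR adjusted p of 6.95e-04 and 0.00277. Myocd was at 5.15% and 4.94% of control in replicates 1 and 2, where Tagln was at 123% and 50.5%. Srf itself was at 173 and 169 CPM in control, 152 CPM in replicate 1 and 112 CPM in replicate 2, with a log2 fold change of -0.37 (SE 0.152) that did not pass (edgeR adjusted p 0.223). Mkl1 and Mkl2, which also encode cofactors of Srf, had log2 fold changes of -0.096 (edgeR adjusted p 0.625) and -0.21 (0.195).

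The remaining called regulators were Tgfb2, Jag1, Gata6 and Prrx1. Tgfb2, a growth factor gene, fell from 360.2 and 347 CPM to 137 and 98.3 CPM (log2 fold change -1.59, SE 0.163, edgeR adjusted p 0.0185). Jag1, a Notch ligand gene, fell from 63.0 and 60.8 CPM to 13.8 and 11.5 CPM (log2 fold change -2.29, SE 0.123, edgeR adjusted p 0.00295). Gata6, a transcription factor gene of heart and vessel, fell from 149 and 149 CPM to 82.9 and 64.0 CPM (log2 fold change -1.02, SE 0.130, edgeR adjusted p 0.0332), and the homeobox gene Prrx1 had a log2 fold change of -1.73 (edgeR adjusted p 0.0240, SE 0.197). For these genes both Isl1_KO libraries were on the same side of control. With the first control library left out all 4 missed the threshold, and with the second left out Tgfb2, Gata6 and Prrx1 did.

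**Figure D4:**
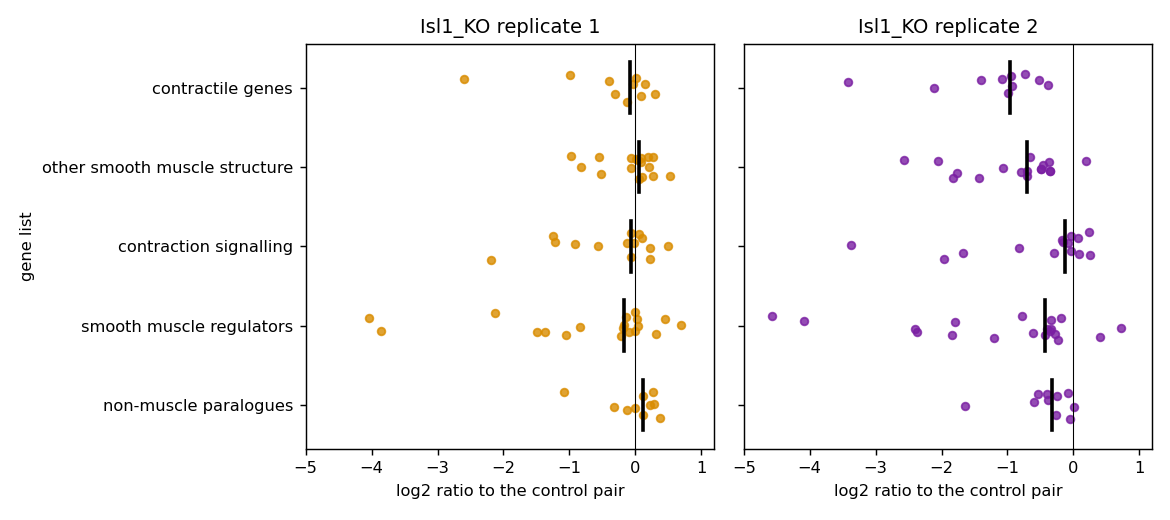
Log2 ratio to the control pair for each tested gene of the 5 lists (1 point per gene, vertical position within a list without meaning) in Isl1_KO replicate 1 (left) and replicate 2 (right), with a black bar at the median of a list. The bar of the contractile genes is at -0.076 on the left and -0.97 on the right. Those of other structure (0.055 and -0.70), regulators (-0.17 and -0.44) and non-muscle paralogues (0.12 and -0.32) are also lower on the right. That of contraction signalling is at -0.058 and -0.13.

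Markers of cell types that a sort could hold were read in the same libraries. The 6 defining smooth muscle markers (Myh11, Smtn, Lmod1, Acta2, Actg2 and Cnn1) had counts in every library and summed to 1859 and 1854 CPM in control, 1349 CPM in Isl1_KO replicate 1 and 402 CPM in replicate 2. Acta2 and Cnn1 were the most abundant and Acta2 made up 85.8% of that sum, and edgeR called 0 of the 6 (1 lower and 0 higher at an unadjusted p under 0.05, 0 by DESeq2). For this list and those below, 12.2% of all genes were lower and 11.0% higher at that unadjusted p. At the adjusted threshold edgeR called 1.94% of all genes lower and 0.503% higher, and DESeq2 called 3.18% of the genes it tested lower and 1.25% higher. Myh11, Smtn and Cnn1 are among the 10 contractile genes, and Acta2, Actg2 and Lmod1 among the 17 structural genes. This list thus repeats their values and is not a separate readout. The levels are those of sorted cardiac progenitors, and no source names a smooth muscle cell in these samples. Of the muscle lists, the skeletal one was nearly absent, with a sum of at most 0.908 CPM, Pax7 and Pax3 its most abundant genes, and Myod1 and Myf5 at 0.

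Fibroblast markers also had their lowest sum in Isl1_KO replicate 2. The 10 genes summed to 2324 and 2277 CPM in control, 1535 CPM in Isl1_KO replicate 1 and 633 CPM in replicate 2. Of the 10, 8 were lower in replicate 2 than in replicate 1, against 48.3% of all genes tested. The most abundant were Col1a1, at 925 and 910 CPM in control, 603 CPM in replicate 1 and 328 CPM in replicate 2, and Col3a1, at 684, 649, 429 and 55.4 CPM in the same order. Fap was at 0 in all 4 libraries. In edgeR 0 of the 9 tested were called (4 lower and 1 higher at an unadjusted p under 0.05), and DESeq2 called 1 lower and 0 higher. The stem cells had been kept on embryonic fibroblasts. The cells were later sorted as GFP-positive, and how many feeder cells remained after the sort was not tested. The study's methods place a day 5 sort for RNA extraction under a directed protocol with a step on gelatin. They also describe a day 5 sort after a hanging drop protocol, and their section on RNA sequencing names neither protocol. The part of fibroblast RNA in the level of any contractile gene was not tested.

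Cardiomyocyte markers, a list that shares Des, summed to 1830 and 1926 CPM in control and to 138 and 85.4 CPM in Isl1_KO, 7.36% and 4.55% of control. Of the 10 tested, edgeR called 9 lower and 0 higher, against 1.94% and 0.503% of all genes. At an unadjusted p under 0.05, 10 were lower, and DESeq2 called 9 lower. Ttn and Myh7 were the most abundant. The summed levels were therefore low in both Isl1_KO libraries, in contrast to the summed contractile genes, which in replicate 1 were above both controls. That contractile sum rested mainly on Cald1, Tagln and Cnn2, at 1213, 842 and 722 CPM in replicate 1. By gene, 6 of the 10 contractile genes were below both controls there and 3 above both, against 5237 and 5231 of all 12715 genes tested. The sums of the other lists also hid members that went opposite ways. Pericyte markers, which include Des, summed to 942 and 961 CPM in control, 863 CPM in replicate 1 and 663 CPM in replicate 2. The most abundant were Pdgfrb (305 and 309 CPM in control, 375 and 195 CPM in Isl1_KO) and Notch3 (213 and 222 CPM, then 299 and 358 CPM). Of the 5 tested, edgeR called 1 lower and 0 higher, against 1.94% and 0.503% of all genes. At an unadjusted p under 0.05, 3 were lower and 1 higher. DESeq2 called 2 lower and 1 higher, the higher one being Notch3. The edgeR call was Rgs5, a signalling regulator gene of pericytes, which fell from 292 and 295 CPM to 122 and 78.3 CPM (log2 fold change -1.55, edgeR adjusted p 0.0359).

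Endothelial markers summed to 456 and 464 CPM in control, 432 CPM in replicate 1 and 487 CPM in replicate 2. Kdr, at 217 and 214 CPM in control, 186 CPM in replicate 1 and 278 CPM in replicate 2, made up 48.7% of this sum, and Flt1, the next, was at 58.5, 68.1, 86.9 and 109.7 CPM. Yet 7 of the 10 markers were lower in replicate 2 than in replicate 1, against 48.3% of all genes tested. Among them was Tek, at 56.2 and 57.9 CPM in control and 33.9 and 16.1 CPM in Isl1_KO. In edgeR 0 of the 10 were called (5 lower and 1 higher at an unadjusted p under 0.05), and DESeq2 called 2 lower and 1 higher.

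Blood markers summed to 87.6% and 70.3% of control in replicates 1 and 2. The most abundant were Runx1, which rose from 70.4 and 71.9 CPM to 102 and 109.7 CPM (log2 fold change 0.57, edgeR adjusted p 0.0335), and the embryonic globin gene Hba-x, at 98.3 and 97.7 CPM in control and 40.6 and 3.64 CPM in Isl1_KO. Of the 7 tested, edgeR called 0 lower and 1 higher (1 lower and 3 higher at an unadjusted p under 0.05) and DESeq2 1 lower and 1 higher. Endoderm markers summed to 82.2% and 70.4% of control, with Cldn6 (81.8 and 83.6 CPM, then 64.7 and 74.4 CPM) and Ttr (30.3 and 31.1 CPM, then 31.2 and 8.85 CPM) the most abundant. In edgeR 0 of their 6 tested were called (2 lower and 0 higher at an unadjusted p under 0.05), and DESeq2 called 1 lower. Pluripotent cell markers summed to 75.4% and 105% of control, where Klf2 was at 27.0 and 26.8 CPM in control and 17.4 and 15.9 CPM in Isl1_KO, and Pou5f1 at 5.45 and 5.91 CPM, then 5.996 and 14.7 CPM. In edgeR 0 of their 4 tested were called (1 lower and 0 higher at an unadjusted p under 0.05), and 0 in DESeq2. The part of a changed mix of cells in the levels of the contractile genes was not tested.

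**Figure D5:**
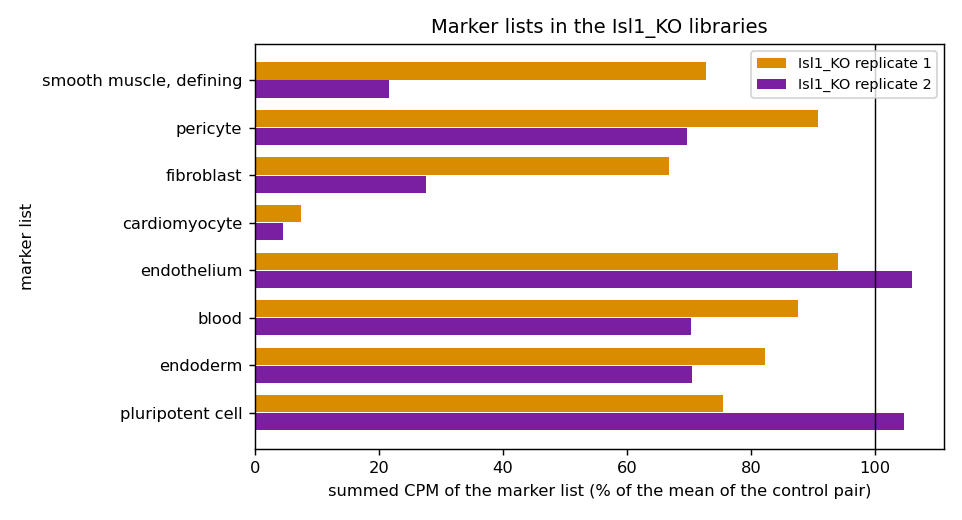
Summed CPM of each marker list in Isl1_KO replicate 1 and replicate 2 as a percentage of the mean of the control pair (bars from 0, 1 library each, line at 100%). Replicate 2 is at 21.7% for the defining smooth muscle markers and 27.5% for fibroblast markers, where replicate 1 is at 72.7% and 66.7%, while cardiomyocyte markers are at 7.36% and 4.55%. The defining smooth muscle markers are all genes of the contractile and other structural lists.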

How the data were processed

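Poly(A) RNA of sorted day 5 progenitor cells was sequenced in 4 libraries, 2 per group, with groups taken from the sample titles. The series design text speaks of a knockdown, but the titles and the methods of a knockout, and the titles were followed. The authors mapped reads to mm9 with STAR (introns of 20 to 500000 bases) and counted exonic reads per RefSeq transcript with HOMER, both strands together. The deposited counts are whole reads per entry, and entries of a gene share reads. RPKM values, which the authors computed with edgeR and deposited, served here for levels per length only. The authors' deposited columns of a DESeq2 comparison (log2 fold change and its error, p-values, test score and the mean signal over libraries) were not used. Versions of the authors' tools are not given in the sources used here. Columns of per-sample values that could not be tied to a sample numbered 0.

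Keeping 1 of 31507 entries per symbol, the highest in summed count, retained 57.0% of counts. Tests used edgeR 4.0.16 in R 4.3.3 (quasi-likelihood F test, TMM factors, filterByExpr, no covariate, two-sided, Benjamini-Hochberg over 12715 genes, threshold 0.05), with DESeq2 1.42.0 as an alternative, and the code was tested on simulated data. CPM values used effective library sizes. A single Isl1_KO library was set against the control pair without a test, and 1.5-fold lower or higher there also means outside both controls. An exact permutation test of 2 against 2 libraries cannot give a two-sided p under 0.333. A floor of 3 counts is 0.341 and 0.328 CPM in control and 0.231 and 0.260 CPM in Isl1_KO. No molecular identifiers were used, so intervals and floors cover counting error only. Positions are from GENCODE vM1 on NCBIM37. Plots used Python 3.11.15 and matplotlib 3.10.9.

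The genes and lists were chosen with earlier results of these data known. The text names Isl1, Nkx2-5, the 10 genes, every called gene of the other gene lists, and Acta2, Actg2, Lmod1, Myocd, Srf, Mkl1, Mkl2, Tagln2, Cnn3, Myh9 and Myh10 in any case, and from each marker list the 2 most abundant genes. Myl12a, Pcsk7, Rgs5, Tek, Actn1 and Tagln3 were added after their values were seen. Alternatives were other size factors, DESeq2, other filters, other entries, the replicate number as a block, another pseudocount or none (the latter chosen after seeing the data), and each library left out.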

Additional observations from a re-analysis of the deposited data

How the results depend on the processing

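Isl1 stayed past the threshold in every fit, with a log2 fold change from -4.74 to -4.08 when 1 library was left out. The 311 genes called became 602 with DESeq2 (305 shared) and 492 without a filter (all 311 shared), 217 when each library needed 10 counts or more, and 27 to 6350 when 1 library was left out. The lowest of these counts belong to the fits without control replicate 1 (27) or control replicate 2 (29), and the highest to those without Isl1_KO replicate 1 (6350) or Isl1_KO replicate 2 (4176), where the lone Isl1_KO library is assumed to vary like the control pair, whose biological coefficient of variation was 1.26% against 16.4% in the Isl1_KO pair.

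Contractile genes called lower numbered 1, then 0 with at least 10 counts in every library, where Synpo2 was not among the 9 tested, and 0 to 9 when 1 library was left out (0 without either control library, 9 without Isl1_KO replicate 1 and 3 without Isl1_KO replicate 2). Those called higher numbered 0, and 0 to 2 when 1 library was left out, the 2 being Tagln and Cnn2 without Isl1_KO replicate 2. Their median log2 fold change was -0.44, and from -0.97 (without Isl1_KO replicate 1) to -0.075 (without Isl1_KO replicate 2). With the replicate number as a block 2 contractile genes were called lower, Des being added, and 454 genes in all (294 shared). The pairing rests on the number alone, which no label explains. Deviations of libraries with the same number had a correlation of 0.010 over 12715 genes. That value cannot decide whether the libraries were paired, because the control libraries differed by little more than counting error.

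Without Isl1_KO replicate 2 the sign turned for Tagln (0.30), Cnn2 (0.15), Myl9 (0.0097), Smtn (0.088), Actg2 (0.28) and Cnn3 (0.12), which without Isl1_KO replicate 1 were at -0.99, -0.73, -1.09, -0.39, -2.27 and -0.41. Tagln2, at 0.0047, turned to -0.0018 under the filter of 10 counts, -0.016 with the replicate block, -0.018 without control replicate 1 and -0.26 without Isl1_KO replicate 1, and was at 0.23 without Isl1_KO replicate 2. The cause was not tested. Over all single genes and alternatives, 268 values kept their direction and side of the threshold, 15 no longer passed, 25 newly passed and 10 changed sign. The medians of the single-library ratios stayed between -0.096 and -0.055 for replicate 1 and between -0.97 and -0.95 for replicate 2 under another pseudocount or none, library totals or a single control library. With no pseudocount 9 contractile genes rather than 8 were 1.5-fold lower in replicate 2, Mylk being added. For Mylk and Synpo2, counts of 51 or fewer in each Isl1_KO library limit precision.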
